A study of Homo sapiens with 2 samples.

Results

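The 51 genes described here encode the machinery that copies DNA and the cyclins and E2F factors that carry a cell from G1 into S phase. Members were the probes of a 2-colour array annotated with one of the 51 symbols or an older synonym, so that CDC45L was read as CDC45 and ORC1L as ORC1. This found 45 of the 51 genes, of 10750 named genes with a value, and all 45 had a value on both arrays. No probe was annotated with CDC6, CDT1, GINS1, GINS2, GINS3 or GINS4, which were not analysed here. MCM7 had 2 probes, and each of the other 44 genes rested on 1.

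One array compared ACC-MESO1 cells depleted of CD26 with control ACC-MESO1 cells, and the other compared MSTO-211H cells carrying CD26 in the pLNCX2 vector with control MSTO-211H cells. Both are established human mesothelioma lines. CD26, the product of DPP4, is a peptidase of the cell surface that removes dipeptides from the ends of peptides. The depleting agent is called an siRNA in one label and an shRNA in another. Neither the treatment of the control cells, nor the time in culture, nor whether the transfected cells were a pool or a clone was stated in the labels. Control cells were in Cy5 and manipulated cells in Cy3 on both arrays, with no dye swap, so a probe's dye effect and the manipulation cannot be told apart on either. Each group had 1 array. No test, standard error or replicate SD can therefore be given for any value, and every count below describes 1 pair of RNA samples.

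Each value given is the log2 of a gene's signal in manipulated cells over that in control cells. Over all genes the median was 0.01 on both arrays, and the middle 50% of genes lay from -0.23 to 0.27 after depletion and from -0.24 to 0.28 after transfection. Different probes of a gene differed with a pooled SD of 0.42 after depletion and 0.45 after transfection, which is the only repeat measurement within an array. DPP4 had a log2 ratio of -3.92 in the depleted cells and 5.51 in the transfected cells, in the direction of both labels. A ratio gives no level, so the mesothelial identity of the cells could not be checked. Of 8 mesothelial markers, 3 of 7 measured were above 0 on each array. They ran from WT1 (-0.37) and KRT19 (-0.33) to CALB2 (0.10) and MSLN (0.59) after depletion. After transfection MSLN (-1.31) and KRT18 (-1.16) were more than 2-fold lower, and WT1 (0.57) and UPK3B (0.66) were the highest. Of 12 markers of other cell types, 6 had a value on each array. They ran from VWF (-0.22) and COL14A1 (-0.07) to CD14 (0.34) and CD68 (0.47) after depletion, and from CD68 (-0.89) and COL14A1 (-0.77) to CD14 (-0.30) and CD3E (1.88) after transfection. Of these, only CD3E was past 2-fold.

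As background, replication is prepared in G1, when the origin recognition complex, CDC6 and CDT1 load the MCM2 to MCM7 helicase onto DNA. At the start of S phase MCM10, CDC45 and the GINS complex convert that helicase into its active form, and polymerases, clamp and clamp loader follow. Cyclins D and E with their kinases phosphorylate the RB protein, which releases E2F factors, and E2F factors activate many of the genes of this machinery. RNA of whole cultures was measured, so a different share of cells in S phase and a different level per cell cannot be told apart.

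Because E2F factors bind the promoters of many replication genes, the members' promoters were searched in RefSeq's annotation of GRCh38.p14. The table held a promoter for 43 of the 51 members, and the 250 bases before each annotated start were read on both strands. An E2F-type site was taken as TTTCCCGC, TTTCGCGC, TTTGCCGC or TTTGGCGC. Such letters stood before at least 1 start of 18 of the 43 members (41.9%), against 928 of all 27305 genes of the table (3.40%) and 729 of its 15843 protein-coding genes (4.60%). The CCAAT box, CCAAT, was found in 60.5% of the members and 40.2% of coding genes. The letters TTTGAA, the core of the cell cycle homology region of mitotic promoters, were found in 4.65% of the members and 14.2% of coding genes. A match describes letters and is not evidence of binding.

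The stretches below are shown because they carry E2F-type sites in 4 members at least 0.5 from 0 on an array, and in MCM6 and MCM7, which lay close to 0 on both. Each is 100 bases read 5′ to 3′ on the gene's own strand and ends before the annotated start. Capitals mark the sites on either strand within the stretch. A further MCM7 site, at -9 to -2 from the same start, lies outside it. So does a UHRF1 site before that gene's other start. The coordinates are chr6:20401757-20401856 (plus strand) for E2F3, chr12:132687348-132687447 (minus) for POLE, chr19:4909398-4909497 (plus) for UHRF1, chr6:24775277-24775376 (plus) for GMNN, chr2:135876509-135876608 (minus) for MCM6 and chr7:100101515-100101614 (minus) for MCM7.
E2F3: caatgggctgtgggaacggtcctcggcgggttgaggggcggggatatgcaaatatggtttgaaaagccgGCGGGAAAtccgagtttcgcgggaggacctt
POLE: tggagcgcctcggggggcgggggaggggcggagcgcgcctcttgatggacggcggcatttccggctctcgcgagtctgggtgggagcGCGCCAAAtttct
UHRF1: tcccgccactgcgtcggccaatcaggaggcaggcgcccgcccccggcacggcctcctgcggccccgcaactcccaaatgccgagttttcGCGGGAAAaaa
GMNN: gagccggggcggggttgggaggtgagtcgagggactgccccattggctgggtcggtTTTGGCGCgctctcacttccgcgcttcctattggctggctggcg
MCM6: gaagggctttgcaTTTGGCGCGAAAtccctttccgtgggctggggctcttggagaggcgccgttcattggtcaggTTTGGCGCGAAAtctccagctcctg
MCM7: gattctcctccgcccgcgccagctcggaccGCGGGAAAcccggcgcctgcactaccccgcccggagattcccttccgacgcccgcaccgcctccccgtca

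MCM6 held 4 matches that form 2 overlapping pairs, the most of any member. Its log2 ratios were -0.09 after depletion and 0.09 after transfection. E2F3, with 1 match, had 0.70 and -0.65. MCM6 was shown for ratios close to 0 and E2F3 for ratios far from 0. These examples therefore cannot tell whether the number of matches goes with the ratios. Over the 38 measured members with a promoter, the median of the 16 with a site was 0.15 in depleted cells and -0.25 in transfected cells. The median of the 22 without one was 0.13 and -0.11, and the difference was not tested.

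**Figure D1:**
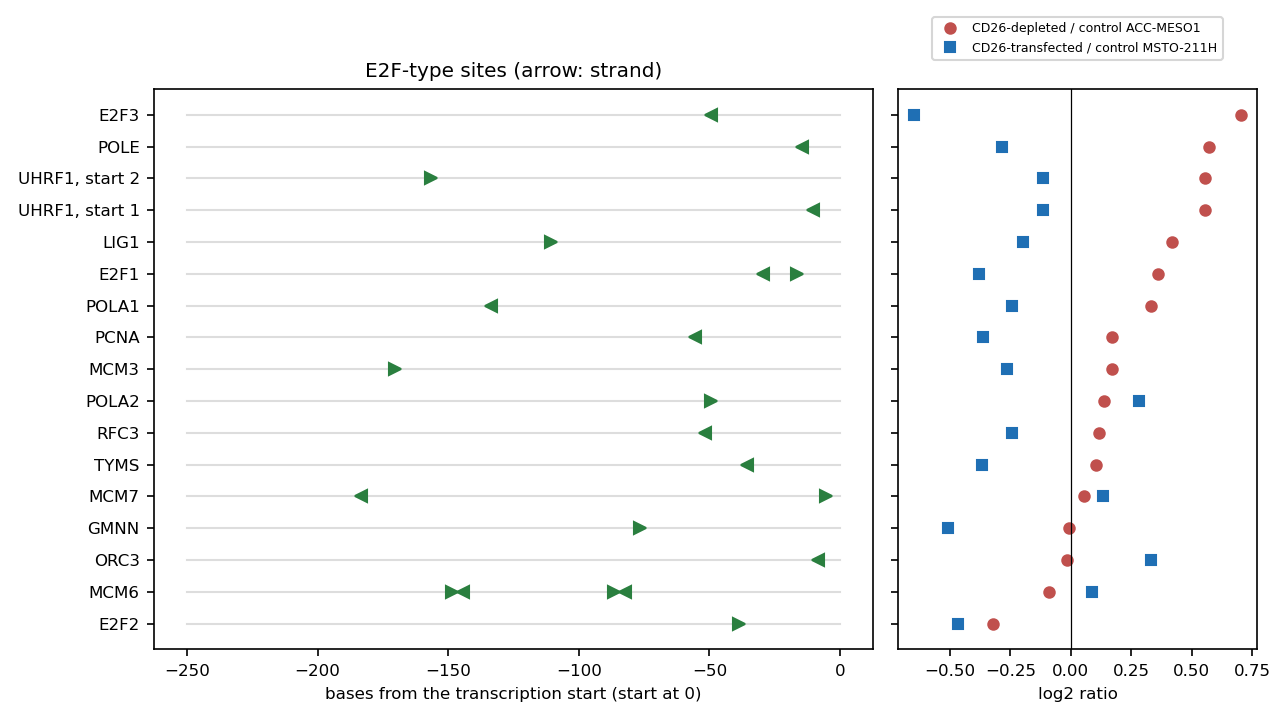
Left, E2F-type sites in the 250 bases before each annotated start, by distance from the start in bases, for the 16 measured members with a site (UHRF1 has 2 starts); arrowheads give the strand. Right, the log2 ratio of each member on the depletion array (circles) and the transfection array (squares), from E2F3 (0.70 and -0.65) to E2F2 (-0.32 and -0.47).

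The 45 measured members lay mostly above 0 in the depleted ACC-MESO1 cells and mostly below 0 in the transfected MSTO-211H cells. After depletion 33 of 45 were above 0, against 51.3% of all genes, and 12 were below 0, against 48.7%. The members' median was 0.14. After transfection 31 of 45 were below 0, against 49.3% of all genes, and 14 were above 0, against 50.7%. The median was -0.19. With each array centred on its ribosomal protein genes, which moved the median of all genes to 0.34 and 0.23, all 45 members were above 0 after depletion (82.2% of all genes) and 27 after transfection (73.1% of all genes). The members' median was then 0.46 and 0.03. Below, directions are relative to the deposited centring unless another is named.

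At 0.5 or more from 0, which is 1.41-fold, 9 members were higher and 0 lower after depletion. Over all genes the shares were 12.8% higher and 9.8% lower. After transfection 1 member was higher and 5 were lower, against 13.1% and 9.4% of all genes, and with ribosomal protein centring 3 were higher and 0 lower, against 24.5% and 3.92% of all genes. Past 2-fold were 2 members, both D-type cyclins and both higher after depletion (3.31% of all genes), and 0 after transfection (4.09% higher and 1.37% lower over all genes). Thus 13 members were at least 0.5 from 0 on an array, 2 of them on both, and the other 32 lay within 0.5 of 0 on both arrays.

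**Figure D2:**
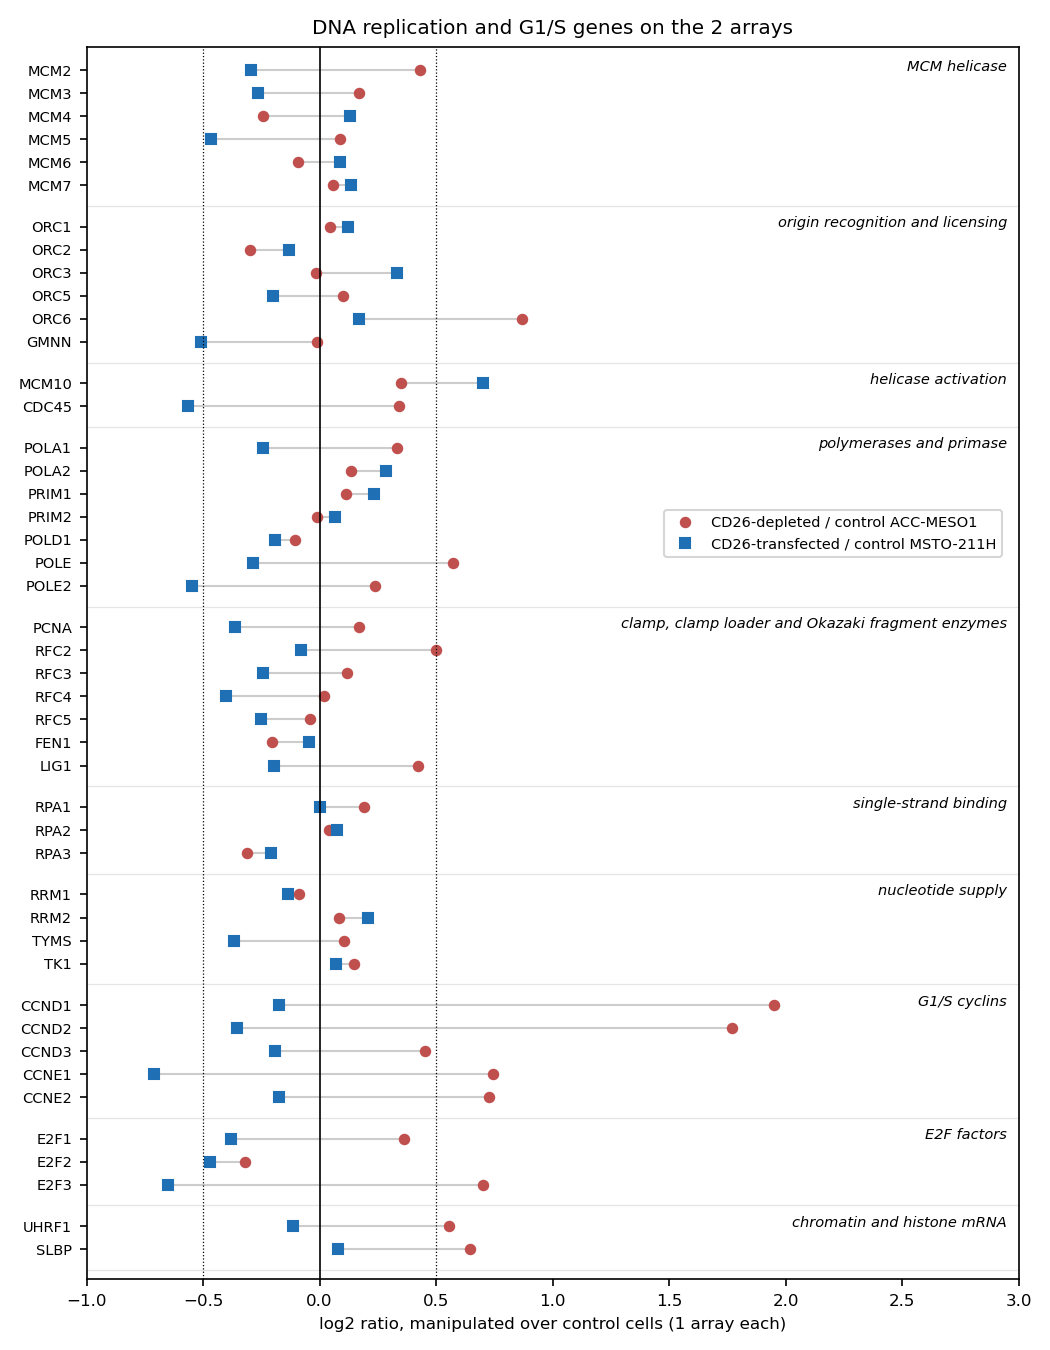
Log2 ratio of manipulated over control cells for each of the 45 measured members, grouped by role; circles are the depletion array, squares the transfection array, and dotted lines mark -0.5 and 0.5. CCND1 (1.95) and CCND2 (1.77) stand farthest to the right, and all 5 cyclins have the circle right of 0 and the square left of it.

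The D-type cyclins CCND1 and CCND2 were the members farthest from 0 in the depleted cells. CCND1, cyclin D1, which activates CDK4 and CDK6 in response to growth signals, had a log2 ratio of 1.95 (3.87-fold higher) and ranked 42nd of 10347 genes. CCND2, cyclin D2, its close paralog, had 1.77 (3.41-fold higher) and ranked 68th. CCND3, cyclin D3, had 0.45. The E-type cyclins activate CDK2 at the G1/S boundary, and CCNE1 had 0.74 (1.67-fold higher) and CCNE2 had 0.73 (1.66-fold higher). All 5 were thus above 0, against 51.3% of all genes, with 4 of them at 0.5 or more, against 12.8%.

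In the transfected cells the same 5 cyclins were all below 0, against 49.3% of all genes. However, 4 of them were below 0 by less than the SD between probes of a gene. CCNE1 was the lowest of all 45 members there at -0.71 (1.64-fold lower). CCND2 had -0.36, CCND3 -0.19, CCND1 -0.18 and CCNE2 -0.17. The order of size was therefore not that of the depletion array, where CCND1 led. With ribosomal protein centring CCND1 (0.04), CCND3 (0.03) and CCNE2 (0.05) were above 0 after transfection, while CCNE1 (-0.49) and CCND2 (-0.14) were still below. The D-type cyclins are paralogs and the probe sequences were not used here, so shared hybridisation among them was not tested.

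Among the E2F factors, E2F3 was farthest from 0 on both arrays. E2F3, an activator of S-phase genes, had log2 ratios of 0.70 (1.63-fold higher) after depletion and -0.65 (1.57-fold lower) after transfection. CCNE1 and E2F3 were the 2 members at 0.5 or more above 0 on the first array and 0.5 or more below 0 on the second, a pattern held by 93 of the 8956 genes with both values (1.04%). E2F1, the founding activator of the family, had 0.36 and -0.38. E2F2 had -0.32, the lowest of all 45 members after depletion, and -0.47. All 3 factors were thus below 0 after transfection, against 49.3% of all genes. With ribosomal protein centring they were still below 0 (-0.16, -0.25 and -0.43 for E2F1, E2F2 and E2F3), against 26.9% of all genes. E2F2 differed in sign from the other two after depletion, though with ribosomal protein centring it was at 0.01.

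Over both arrays, 23 of the 45 members were above 0 after depletion and below 0 after transfection, against 24.0% of the 8956 genes with both values. Opposite signs in either order were held by 27 of 45, against 46.9% of those genes. With ribosomal protein centring 18 of 45 held them. The share of all genes under that centring is not given here, so the 18 have no background beside them. Among the 8 cyclins and E2F factors, 7 were above 0 after depletion and below 0 after transfection, E2F2 being the exception. Among the other 37 members the number was 16. Whether these groups differ cannot be tested with 1 array each. The arrays also differ in cell line, so line and manipulation cannot be told apart between them.

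**Figure D3:**
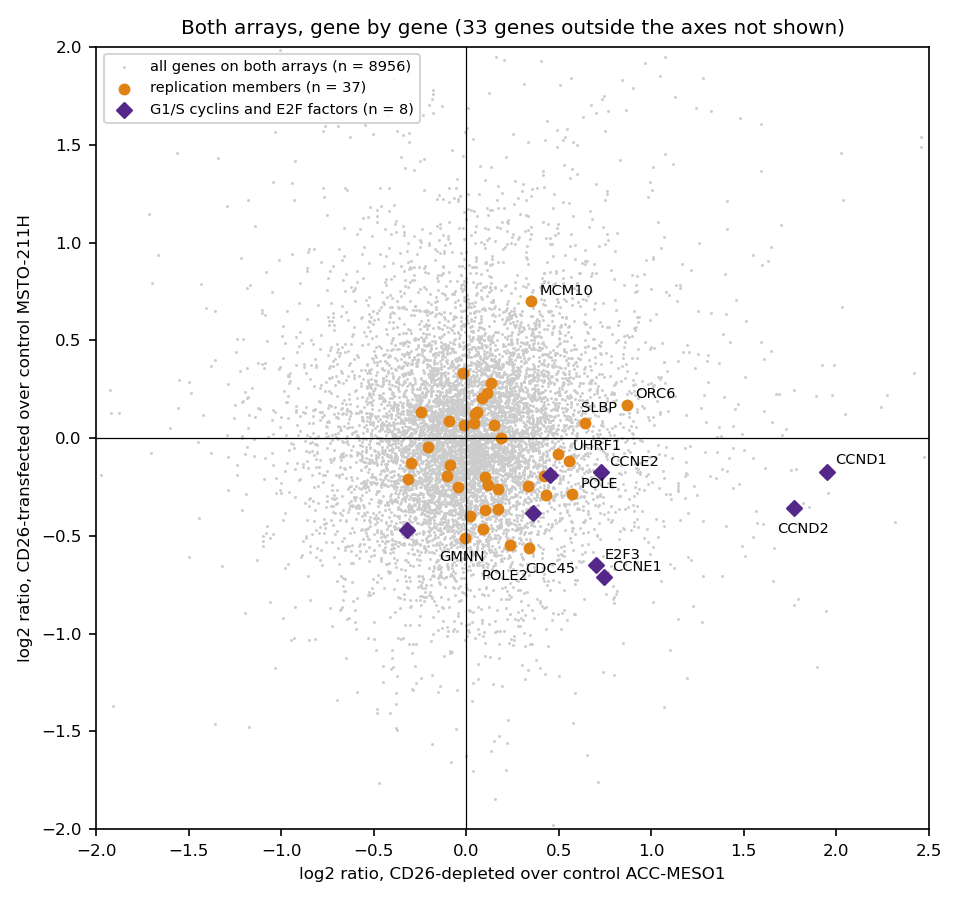
Log2 ratio on the depletion array (x axis) against that on the transfection array (y axis) for genes with both values (grey, 8923 of 8956 inside the axes), the 37 replication members (circles) and the 8 cyclins and E2F factors (diamonds). Of the diamonds, 7 lie in the lower right part; CCNE1 (0.74 and -0.71) and E2F3 (0.70 and -0.65) are close together there, and the members at least 0.5 from 0 on an array are named.

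The MCM helicase subunits lay close to 0. The 6 subunits MCM2 to MCM7 form the ring that unwinds DNA at the fork, and their medians were 0.07 after depletion and -0.09 after transfection. MCM2 was the highest after depletion at 0.43 and had -0.29 after transfection. MCM5 was the lowest after transfection at -0.47 and had 0.09 after depletion. MCM4 had -0.24 and 0.13, the reverse order of signs, and MCM3 had 0.17 and -0.26. The probes of MCM7 gave -0.06 and 0.17 after depletion and 0.11 and 0.16 after transfection, so the sign of MCM7 after depletion depended on the probe. None of the 6 subunits was at 0.5 or more from 0, and neither were most genes of each array. Over all genes 12.8% were higher and 9.8% lower by that much after depletion, and 13.1% and 9.4% after transfection.

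Among the genes that mark and license origins, ORC6 stood apart from the other origin recognition subunits. ORC6, the smallest subunit of the complex, had a log2 ratio of 0.87 (1.83-fold higher) after depletion, next among the members after CCND1 and CCND2, and 0.17 after transfection. ORC1 had 0.05 and 0.12, ORC2 -0.30 and -0.13, ORC3 -0.02 and 0.33, and ORC5 0.10 and -0.20. The subunits of this complex thus shared no direction on either array. GMNN, geminin, the protein that binds CDT1 and blocks a second round of licensing, had -0.01 after depletion and -0.51 (1.42-fold lower) after transfection.

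The 2 measured factors of helicase activation parted after transfection. MCM10, which helps to open the loaded helicase, had 0.35 after depletion and 0.70 (1.62-fold higher) after transfection, where it was the highest of all 45 members. CDC45, a part of the active helicase, had 0.34 after depletion and -0.56 (1.48-fold lower) after transfection. Their values were thus alike in the depleted cells and of opposite sign in the transfected cells. With ribosomal protein centring the transfection values were 0.92 and -0.34.

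Among the polymerases, both members for polymerase epsilon, the leading strand enzyme, were above 0 after depletion and below 0 after transfection. POLE, its catalytic subunit, had 0.57 (1.49-fold higher) and -0.29. POLE2, its second subunit, had 0.24 and -0.55 (1.46-fold lower). Its subunit genes outside the members, POLE3 (-0.34 and 0.02) and POLE4 (-0.03 and 0.34), were below 0 after depletion and above 0 after transfection. Polymerase alpha and primase make the primers, and their subunits differed in sign after transfection, with POLA1 at 0.33 and -0.24 and POLA2 at 0.14 and 0.28. The primase subunits PRIM1 (0.11 and 0.23) and PRIM2 (-0.01 and 0.07) and the lagging strand polymerase gene POLD1 (-0.11 and -0.19) stayed within 0.25 of 0.

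The 7 members for the clamp, its loader and the enzymes that finish Okazaki fragments were all below 0 after transfection, against 49.3% of all genes. Their median was -0.24. They ran from RFC4 (-0.40) and PCNA (-0.36) to RFC2 (-0.08) and FEN1 (-0.05). Each of the 7 was within the SD between probes of a gene. With ribosomal protein centring 3 of the 7 were above 0, against 73.1% of all genes. Outside the members, the clamp loader genes RFC1 and CHTF18 had -0.21 and 0.94 after transfection. The nuclease genes DNA2 and RNASEH2A had 0.80 and 0.05 there. After depletion 5 of the 7 members were above 0, against 51.3% of all genes. RFC2, a clamp loader subunit, was the highest at 0.50 (just below the threshold) and LIG1, the ligase that seals the fragments, followed at 0.42. PCNA, the sliding clamp, had 0.17, RFC3 0.12, RFC4 0.02, RFC5 -0.04 and FEN1, the flap nuclease, -0.20.

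Genes of single-strand binding and nucleotide supply stayed close to 0. Replication protein A coats single-stranded DNA, and its subunits ranged from RPA3 (-0.31) to RPA1 (0.19) after depletion and from RPA3 (-0.21) to RPA2 (0.08) after transfection. The ribonucleotide reductase genes RRM1 (-0.09 and -0.14) and RRM2 (0.09 and 0.21) and the thymidine kinase gene TK1 (0.15 and 0.07) were within 0.25 of 0 on both arrays. TYMS, thymidylate synthase, had 0.10 and -0.37. The 7 genes of these roles thus held none at 0.5 or more from 0. Over all genes 12.8% were higher and 9.8% lower by that much after depletion, and 13.1% and 9.4% after transfection. Most genes of each array thus lay within 0.5 of 0 too. Of the remaining pair, SLBP, which binds the stem-loop of histone mRNAs, had 0.64 (1.56-fold higher) after depletion and 0.08 after transfection. UHRF1, which brings maintenance methylation to newly made DNA, had 0.55 (1.47-fold higher) and -0.12.

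The 13 members at 0.5 or more on an array were also set beside their neighbours, the 5 measured genes on either side along the chromosome. After depletion the neighbours' median was 0.10 at CCND1, 0.15 at CCND2, 0.16 at CCNE1, 0.15 at CCNE2 and 0.09 at ORC6. These members stood above the genes around them by 0.57 (CCNE2) to 1.85 (CCND1). They were chosen for their distance from 0, so a gap to neighbours near 0 was largely set by that choice. At SLBP the neighbours' median was -0.35, the farthest from 0 on that array. After transfection it was -0.03 at CCNE1, -0.19 at E2F3, -0.14 at CDC45 and 0.07 at MCM10. At POLE2 it was 0.47, and relative to those genes POLE2 was at -1.01.

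**Figure D4:**
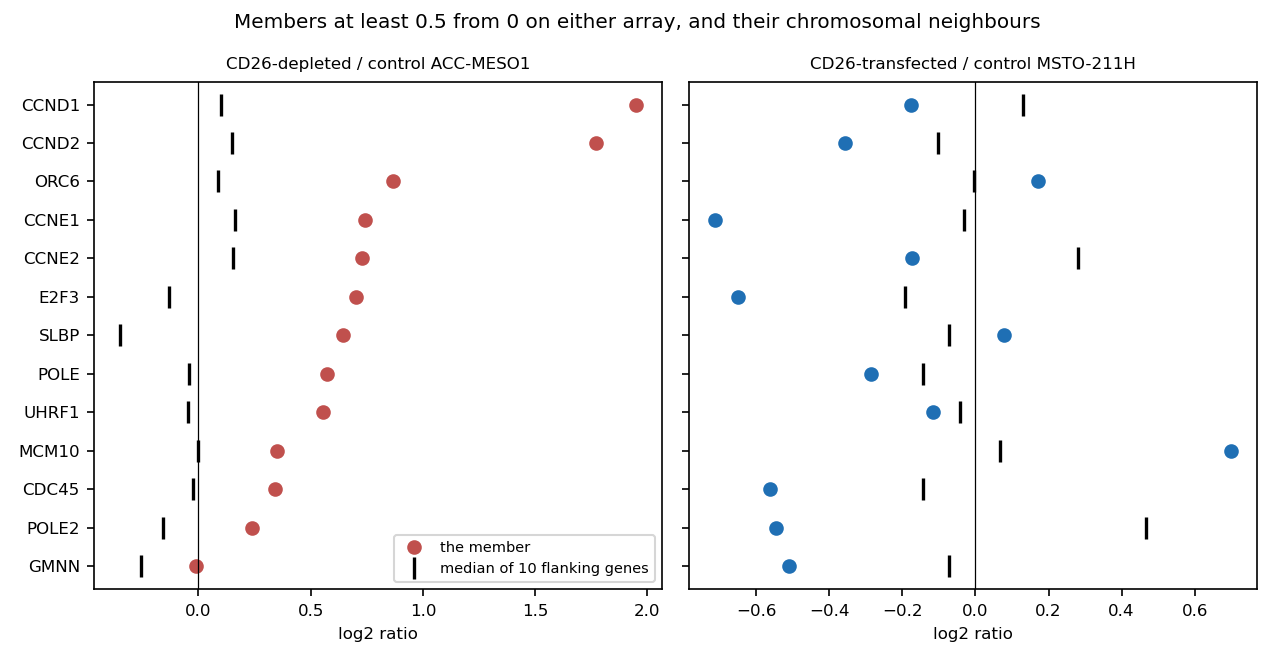
For the 13 members at least 0.5 from 0 on an array, the member's log2 ratio (circle) and the median log2 ratio of its 10 flanking measured genes (bar), on the depletion array (left) and the transfection array (right). The circles of CCND1 (1.95) and CCND2 (1.77) lie far from their bars (0.10 and 0.15), and POLE2 (-0.55) and its bar (0.47) lie on opposite sides of 0 after transfection.

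Other genes of the same pathway were listed apart from the members. Of 38 further replication fork genes, 28 were measured, with medians of -0.01 after depletion and 0.0013 after transfection. After depletion 3 were at 0.5 or more and 1 at -0.5 or less, against 12.8% and 9.8% of all genes. After transfection the numbers were 3 and 0, against 13.1% and 9.4% of all genes. The 3 were 10.7% of the list on each array, which is near the share over all genes. The histone chaperone genes SUPT16H (0.75) and ASF1A (-0.73) were at the ends after depletion, with the polymerase delta subunit gene POLD3 (0.69) and MCM9 (-0.50) next. After transfection the ends were the clamp loader gene CHTF18 (0.94) and the nuclease gene DNA2 (0.80), and ASF1B (-0.32) and CHAF1A (-0.22).

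Of 28 further G1/S regulators, 19 were measured after depletion and 16 after transfection, with medians of -0.12 and -0.17. CDK6, the kinase partner of the D-type cyclins, had a log2 ratio of 1.23 (2.35-fold higher) after depletion and -0.24 after transfection, and was the only one of them past 2-fold. CDK4, the other partner, had 0.20 and -0.30. MYC, a transcription factor of growth genes, had 0.90 and 0.41, the highest of the list after transfection, ahead of CCNA2 (0.08). The lowest were RBL2, an RB relative (-0.44), and DDB1 (-0.32) after depletion, and TFDP1, the DNA-binding partner of E2F factors (-0.88), and RBL2 (-0.56) after transfection. The neighbours of TFDP1 had a median of -0.46 on that array, so the genes around it were lower too. RB1 had -0.24 after depletion and no value after transfection.

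Of 25 further nucleotide supply genes, 24 were measured, with medians of -0.09 after depletion and 0.03 after transfection. After depletion the pyrimidine synthesis genes CTPS1 (0.71) and CAD (0.64) were the highest and CTPS2 (-0.43) and PAICS (-0.39) the lowest. After transfection DUT (0.58) and TK2 (0.46) were the highest and RRM2B (-0.56) and DCK (-0.32) the lowest.

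Mitotic genes, which act later in the same cycle, had medians on the other side of 0 from the replication members on both arrays. Of 40 listed, 36 were measured, with medians of -0.17 after depletion and 0.02 after transfection. After depletion 12 of 36 were at -0.5 or less and 1 at 0.5 or more, where the 45 members held 0 and 9. Over all genes the shares were 9.8% and 12.8%. The lowest were PTTG1, securin (-1.10), and BIRC5, survivin (-0.82), and the highest UBE2C (0.68) and ZWINT (0.46). After transfection 2 were at 0.5 or more and 0 at -0.5 or less, against 13.1% and 9.4% of all genes. The mitotic genes ran from DLGAP5 (0.60) and NUF2 (0.51) to TPX2 (-0.36) and AURKA (-0.24). With ribosomal protein centring the mitotic median was 0.15 after depletion and 0.24 after transfection, against 0.46 and 0.03 for the members, so both lists were above 0 and their order on each array was unchanged. The difference between the lists was not tested, since genes of 1 array are not replicates.

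**Figure D5:**
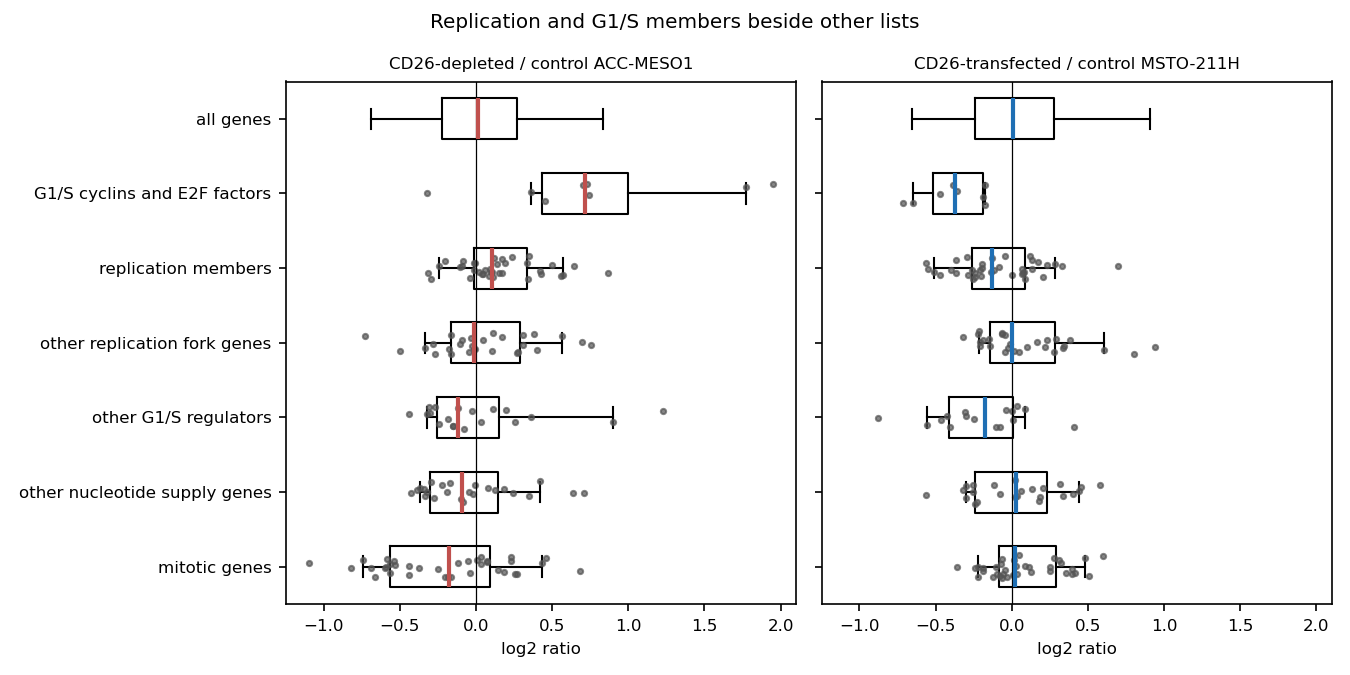
Log2 ratios on each array (left, depletion; right, transfection) for all genes, the 8 cyclins and E2F factors, the 37 replication members and 4 other lists; points are genes, boxes the middle 50%, coloured lines medians and whiskers the outermost genes within the 5th to 95th percentile. The medians of the cyclins and E2F factors (0.72 and -0.37) lie farthest from 0 on both arrays, and those of the mitotic genes are -0.17 and 0.02.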

How the data were processed

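Per the labels, the authors deposited normalized log2 ratios, with the manipulated cells over the control. Per the labels' protocols, RNA extracted with TRIZOL was amplified as amino allyl RNA before dye coupling. The sources used here do not say how background was corrected, values normalized, slides scanned or probes left empty, and signal over background is unknown. Of 24267 probes, 13395 had a gene symbol and 10872 had none. Symbols were updated through RefSeq's annotation of GRCh38.p14 (10076 current, 2285 updated, 113 with several candidates kept as listed) and probes of a gene averaged, giving 10347 and 9359 genes. The averaging and counts were checked on the real values with known shifts added to some genes. Python 3.11.15, pandas 2.3.3 and numpy 2.4.6 were used. Members, lists and thresholds (0.5 and 1) were chosen with earlier results of these data known. Genes named were all measured members and, of other lists, genes past 2-fold and the 2 highest and 2 lowest. CDK4, RB1, POLE3, POLE4, RFC1 and RNASEH2A were chosen after their values were seen. Alternatives covered centring, probe rule, gene set, chromosome, scale, neighbours and leaving out the cyclins. The planned protein comparison of MCM2 to MCM7 was not run.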

Additional observations from a re-analysis of the deposited data

How the results depend on the processing

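Of 104 counts and medians under 8 alternatives, 94 kept their direction and stayed within 1.5 times the reported count or the SD between probes. All measured members had a value on both arrays, so keeping only such genes could change no member. The probe rules could change only MCM7. The agreement under these alternatives was therefore largely set in advance. Centring on ribosomal protein genes moved members at 0.5 or more after depletion from 9 to 19 (all genes: 33.4%) and past 2-fold from 2 to 6 (7.64%). After transfection it moved members at 0.5 or more from 1 to 3 (24.5%), at -0.5 or less from 5 to 0 (3.92%), above 0 from 14 to 27, and the median from -0.19 to 0.029, by its construction. Subtracting the neighbours' median was an alternative chosen after seeing the data. It gave 2 members at -0.5 or less after depletion and 1 at -1 or less after transfection, POLE2. The shares of all genes after that subtraction are not given here, so these counts have no background beside them. Without the 5 cyclins, also chosen after seeing the data, members at 0.5 or more after depletion numbered 5 (all genes: 12.8%). Those past 2-fold higher numbered 0 (3.31%). Of the 37 members outside the cyclins and E2F factors, 4 were at 0.5 or more (10.8%), which is near the share over all genes. Single values were followed for 23 members and numbered 320 under the alternatives. These members were those at least 0.5 from 0 on an array, the 5 highest and 5 lowest of each array, and MCM7. Of the 320 values, 319 moved by less than the SD between probes and 0 turned sign from 0.5 or more. Ribosomal protein centring added 0.33 to every value after depletion and 0.22 after transfection. Both are below that SD, so by this measure it could move no member. Smaller values could turn sign uncounted, as CCND1 did after transfection (-0.18 to 0.04). No paired analysis was possible because each group had 1 array. With 1 array each and no intensities, a dim probe could not be told from a bright one.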
